A study of Mus musculus with 53 samples.

Results

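The median eminence (ME) lies at the base of the hypothalamus and is one of the circumventricular organs, where capillaries are fenestrated and let blood-borne molecules into the tissue. Pericytes are mural cells that sit within the basement membrane of capillaries. Fibroblasts lie outside it in the perivascular space, where they make collagens and other matrix proteins. The data described here are those regions of interest in the ME from which both a fibroblast-enriched and a pericyte-enriched segment were collected, so that the 2 areas could be compared side by side in the same tissue section. A region entered when an ME GFP and an ME Desmin segment shared the replicate, the slide and the region number. This held for 17 of the 20 ME regions and gave 34 of the 53 segments of the series.

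RNA was measured with the GeoMx mouse whole transcriptome probes, which are cleaved by light from a drawn area and counted by sequencing. All mice carried Pdgfra-H2B-EGFP/+, a reporter in which the Pdgfra promoter places EGFP in nuclei and which the study used to mark fibroblasts. The study's marker list also gives Pdgfra for oligodendrocyte precursor cells. Whether GFP-positive areas held such cells was not tested. The study's methods give an age of 8 to 14 weeks and both sexes for its mice as a whole, and the labels name no treatment. Fibroblast segments were GFP-positive and DES-negative areas, and pericyte segments were DES-positive and GFP-negative areas. DES is desmin, an intermediate filament protein of mural cells. The segments were drawn on small vessels where possible, since large ones carry smooth muscle. A segment is an area enriched for a cell type and not a set of isolated cells, so fewer cells of a type and less RNA per cell cannot be told apart. The GFP and DES transcripts themselves are no finding, because these markers were used to draw the areas.

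The pairs came from 3 animals. Animal 2 gave 1 pair (slide 42), animal 4 gave 3 pairs (slide 21) and animal 3 gave 13 pairs, with 3 on slide 4, 5 on slide 5 and 5 on slide 6. Animal 2 was collected on a different plate from animals 3 and 4, but both segments of a pair always shared a plate. The files name 20175 probes by code alone, with no table that pairs a code with a gene. Levels are therefore given per probe, no marker gene could be read to check the labelled cell types, and no pathway was tested.

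Fibroblast segments held 36 to 66 nuclei (median 48) and pericyte segments 6 to 60 (median 21). The number of nuclei thus ranged more widely among the pericyte segments. The nuclei ratio, fibroblast over pericyte, ran from 2.70 to 8.83 on slide 4, from 0.833 to 3.47 on slide 5, from 1.09 to 4.56 on slide 6 and from 1.00 to 2.19 on slide 21, and it was 2.40 on slide 42. Only region 4 of slide 5 held fewer nuclei in the fibroblast segment, with 50 against 60, and region 2 of slide 21 held 45 in both.

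Total probe counts were 24517 to 95935 (median 54982) in fibroblast segments and 26490 to 140347 (median 51788) in pericyte segments. Their ratio differed from slide to slide. On slide 4 the fibroblast segment held more counts in each of the 3 regions (1.12 to 1.83 times as many). On slide 21 it held fewer in each of the 3 regions (0.289 to 0.974). Slides 5 and 6 went both ways, with the fibroblast segment higher in 2 of 5 and 1 of 5 regions. The mean log2 ratio over the 3 animals was 0.03 ± 1.01 (SD, n = 3; exact two-sided sign-flip permutation test over animals, p = 1.00). The animals thus lay on both sides of 0, and a test over 3 animals cannot give a p below 0.25.

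Counts per nucleus were lower in the fibroblast segment of every pair, at 496 to 1547 (median 1100) against 1324.5 to 7064 (median 2872). Averaged on the log scale, the fibroblast value was 0.898 of the pericyte value for animal 2, 0.358 for animal 3 and 0.350 for animal 4. The exact sign-flip permutation test over these 3 animals gave p = 0.25, the smallest it allows. The difference in animal 2 was small beside those of animals 3 and 4. The highest pericyte value, 7064 counts per nucleus, came from the segment with the fewest nuclei, 6, on slide 4. How the areas were drawn also enters a count per nucleus, and its part was not tested.

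**Figure D1:**
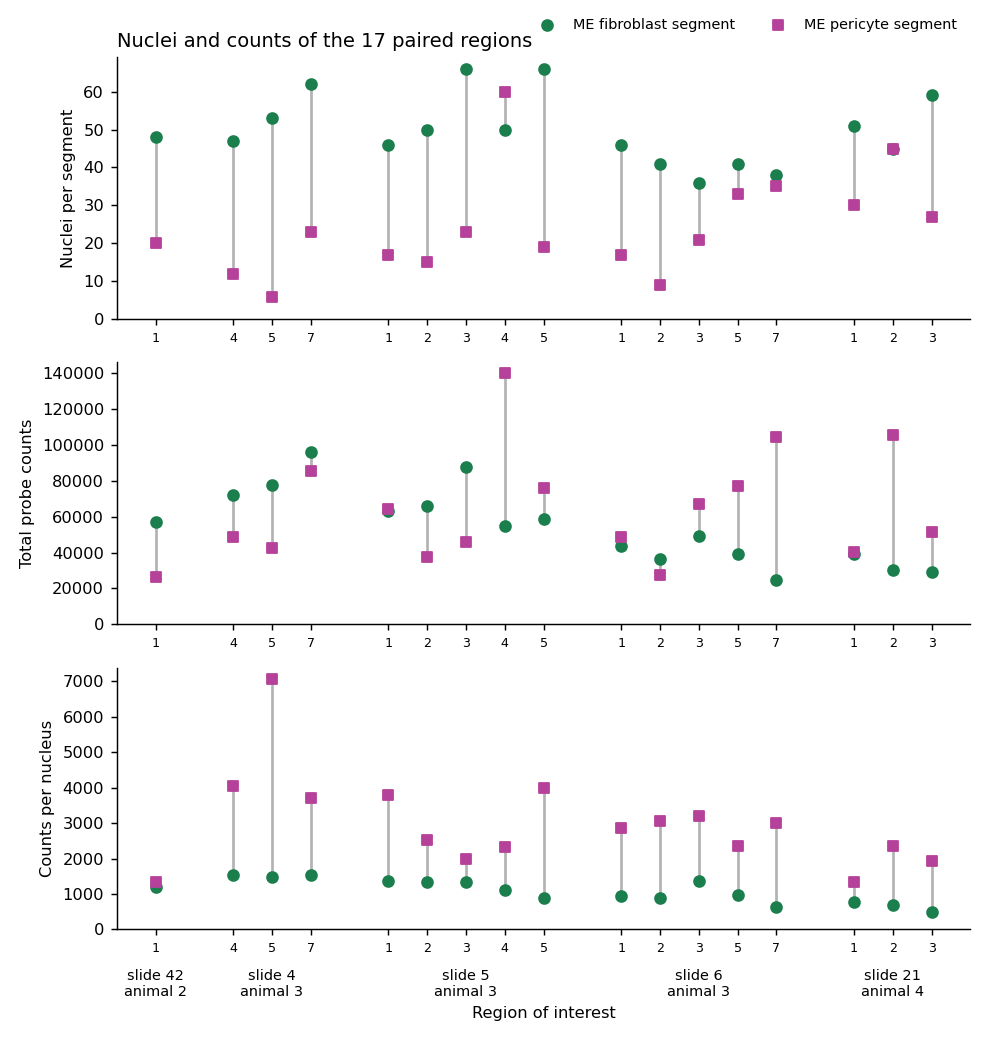
Nuclei, total probe counts and counts per nucleus (y axes) in the fibroblast (circles) and pericyte (squares) segment of each of the 17 paired regions (x axis, region number grouped by slide), with a line joining the 2 segments of a region. Fibroblast segments had fewer counts per nucleus in all 17 regions, while total counts were higher in all 3 regions of slide 4 and lower in all 3 of slide 21.

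The fibroblast segments concentrated more of their counts in a few probes. The 200 highest probes of a segment took 15.5% to 17.6% of its counts in fibroblast segments and 13.7% to 15.7% in pericyte segments. In all 17 pairs the fibroblast segment had the higher share. Because this share can move with depth, the deeper segment of each pair was also thinned to the total of the other, after which the difference was 0.71 to 2.53 percentage points and still positive in 17 of 17 pairs. In animals 2, 3 and 4 it averaged 0.887, 1.71 and 1.45 points (exact sign-flip permutation test, p = 0.25).

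Sequencing depth did not follow the segment type in every pair. Raw reads were 94426 to 1361611 (median 252472) in fibroblast and 113862 to 1385833 (median 512199) in pericyte segments, and within pairs the fibroblast segment had more in 8 and fewer in 9. Saturation, the share of aligned reads that repeat a molecule already counted, had medians of 77.2% in fibroblast and 86.3% in pericyte segments. Fibroblast segments had the higher saturation in 6 pairs and the lower in 11. In 15 of 17 pairs a larger share of reads aligned to probes in the fibroblast segment. In animal 2 it was lower by 8.05 percentage points (80.7% against 88.7%). The part of these measures in the probe differences below was not tested.

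To ask which probes distinguished the 2 areas, the counts of all paired fibroblast segments of an animal were added up, and likewise those of its pericyte segments. After upper-quartile scaling, each animal's sums were compared with each other in edgeR's quasi-likelihood framework, in which animals entered as blocks. Of 3305 probes with enough counts, 164 (4.96%) differed between the areas (n = 3 animals), where a call needed an adjusted p below 0.05 together with a log2 change exceeding 1 in either direction. Of all tested probes, 50 (1.51%) were higher and 114 (3.45%) were lower in the fibroblast segments. Pericyte-enriched probes thus made up most of the calls. With scaling by library totals alone the split was 34 higher and 134 lower. All other probes did not pass the filter on low counts set for these sums.

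The changes were moderate in size. Because a call needed a log2 change exceeding 1 in size, the medians of called probes had to exceed 1 as well. Higher probes had a median log2 change of 1.13 and lower ones of -1.28, beside 0.04 over all probes tested. Only 1 higher probe but 10 lower probes exceeded 2 in size. Calls were more frequent where levels were higher, rising over 4 equal bins of mean level from 2.66% through 2.91% and 4.72% to 9.56%.

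**Figure D2:**
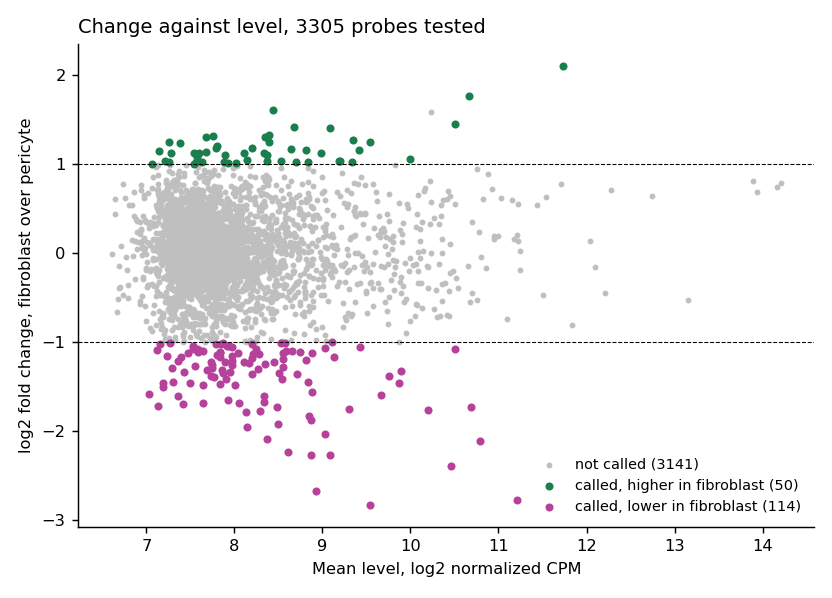
Log2 fold change, fibroblast over pericyte (y axis), against mean level in log2 normalized CPM (x axis) for the 3305 probes tested, with dashed lines at a change of 1 in size. The 50 probes called higher and 114 called lower are colored, and the lower ones reach further from 0.

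The number of calls rested on animal 3, which holds 13 of the pairs. It was 176 without animal 2 and 160 without animal 4, but 7 without animal 3. With limma on the mean within-region log2 ratios of each animal, 0 probes were called (383 at an unadjusted p under 0.05). A mixed model per probe with the same terms as the study's called 57, and DESeq2 called 35. The study fitted its model to genes above a limit of quantification, after removing genes assigned to other cell types. Its own results are therefore not set beside these.

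The called probes were then followed through single regions, as a description of the values that chose them. Of the 50 higher probes, 36 were higher in each of the 3 animals, and of the 114 lower probes, 92 were lower in each. Over all probes tested, 38.3% had the sign of their fitted change in each animal. A higher probe held its direction in a median of 15 of 17 regions and a lower probe in 16 of 17, against 11 of 17 over all probes tested. The direction held in 17 of 17 regions for 10 higher and 34 lower probes, and for 2.39% of all probes tested. In single regions, 37 to 48 of the 50 higher probes were higher and 88 to 111 of the 114 lower probes were lower. The pair of animal 2 had the fewest of the higher probes in the called direction, 37, and region 1 of slide 21 the fewest of the lower ones, 88.

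The median log2 change of the higher probes was 0.93, 1.11 and 1.14 in animals 2, 3 and 4. That of the lower probes was -0.93, -1.27 and -1.33 in the same order. The probes were called on these same animals, so a shared direction of the medians was favored by the choice. In size the medians were smallest in animal 2.

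**Figure D3:**
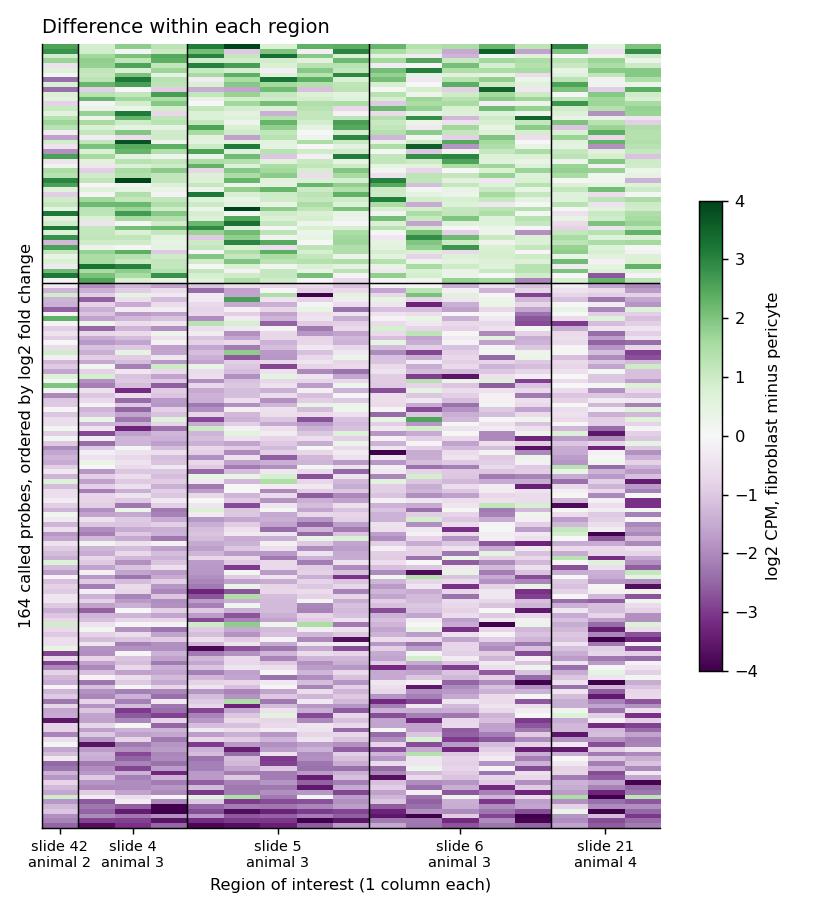
Log2 CPM of the fibroblast minus the pericyte segment (color) for the 164 called probes (rows, ordered by fitted change) in each of the 17 regions (columns, grouped by slide and animal). Most cells of the upper 50 rows are above 0 and most of the lower 114 rows below 0 in every region, with 37 of the 50 and 97 of the 114 in the called direction in the pair of animal 2.

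Probe RTS0074851 had the smallest p among the higher probes. Its level in single segments was 457 to 6902 CPM of all counts (median 773) in fibroblast and 53.0 to 1699 CPM (median 211) in pericyte segments. The groups overlapped across regions, yet within each region the fibroblast segment was higher, in 17 of 17. The levels differed between animals in both segment types, at 1866 to 6902 CPM in the fibroblast segments of animal 4 against 457 to 2507 CPM in those of animal 3. In the sums per animal, on a separate scale set over the probes tested, it was 6087 ± 4197 normalized CPM in fibroblast and 1395 ± 1243 in pericyte segments (SD, n = 3). The log2 fold change was 2.11 (SE 0.16, adjusted p = 4.75e-10, edgeR's quasi-likelihood test), and the animals' own log2 changes were 2.67, 2.08 and 1.88 in animals 2, 3 and 4. In single regions the log2 difference ran from 0.64 to 5.16. Both the lowest and the highest value of animal 3 (0.77 and 5.16) came from slide 5. The value of 5.16 rested on 166 fibroblast counts against only 2 pericyte counts. The probe missed the threshold when animals were not blocked (adjusted p = 0.39) and in limma (adjusted p = 0.0607).

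Probe RTS0068460 was the other named higher probe, and it was uneven. Fibroblast segments held 40.8 to 5877 CPM (median 190) and pericyte segments 0 to 891 CPM (median 105). The fibroblast segment was higher in 12 regions, the pair of animal 2 among them, and lower in 5. Of these 5, 2 were on slide 5, 2 on slide 6 and 1 on slide 21. The fitted log2 fold change was 1.77 (SE 0.21, adjusted p = 1.74e-06, edgeR's quasi-likelihood test), with changes of 1.25 in animal 3 and 2.17 in animal 4. The pair of animal 2 had 6 counts against 0 counts of 26490, which allows up to 113 CPM and leaves no fold to be given there. Its fibroblast level, 105 CPM, was below that limit, so the direction in this pair is not settled. The choice of this probe nevertheless counted it as higher in animal 2. In animal 4, regions 1 and 3 carried it, with 142 and 172 fibroblast counts against 36 and 41, while region 2 had 13 against 67. This probe missed the threshold when animals were not blocked (adjusted p = 0.64), in limma (adjusted p = 0.26) or in the mixed model (adjusted p = 0.51).

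Probe RTS0070506 had the smallest p of all and was lower in the fibroblast segments. It was at 72.8 to 508 CPM (median 208) in fibroblast and 742 to 2725 CPM (median 1738) in pericyte segments. No fibroblast segment reached the lowest pericyte segment. Such a separation was favored by the choice of the probe by its p, and its share over all probes was not counted. The highest fibroblast value came from the single pair of animal 2 and the lowest pericyte value from region 1 of slide 21. In the sums per animal it was 690 ± 294 normalized CPM in fibroblast and 4048 ± 219 in pericyte segments (SD, n = 3). The log2 fold change was -2.78 (SE 0.20, adjusted p = 2.92e-10, edgeR's quasi-likelihood test), with -1.99, -3.11 and -2.72 in animals 2, 3 and 4.

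Probe RTS0065353 showed the same separation at a lower level. Fibroblast segments held 30.2 to 160 CPM (median 76.2), from 2 to 8 counts each, and pericyte segments 346 to 793 CPM (median 541), from 13 to 59 counts. The 2 ranges did not overlap, which the choice of the probe also favored. The log2 fold change was -2.83 (SE 0.22, adjusted p = 6.82e-10, edgeR's quasi-likelihood test), with -2.52, -2.90 and -2.31 in animals 2, 3 and 4. Neither of the lower probes was called in limma (adjusted p = 0.0607 for both) or in the mixed model (adjusted p = 0.33 for RTS0070506 and 0.28 for RTS0065353). The spread of the 3 animals' own changes is not what these standard errors and adjusted p measure, since edgeR pools variance over probes.

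**Figure D4:**
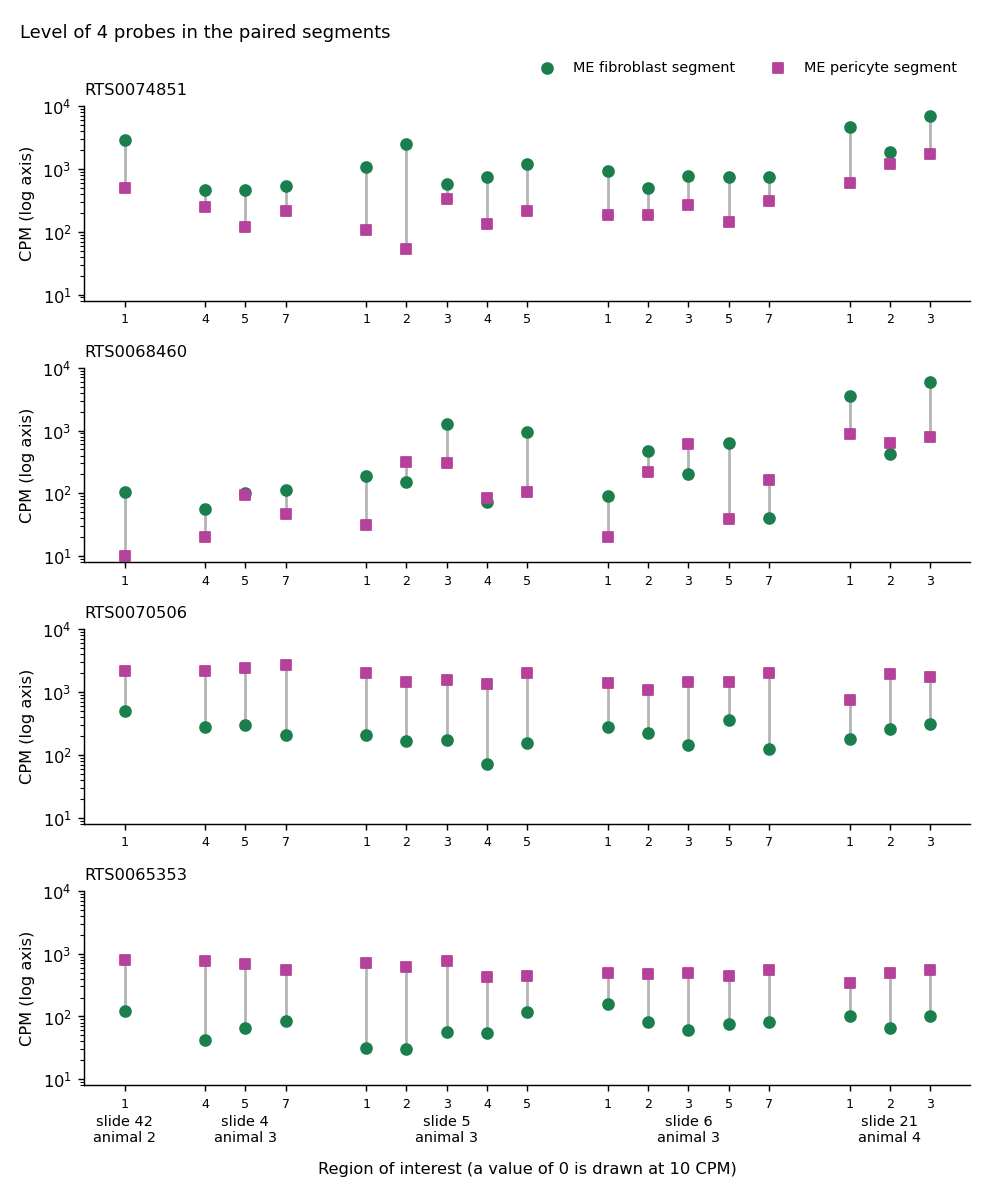
CPM of all counts (y axes, log scale) of 4 probes in the fibroblast (circles) and pericyte (squares) segment of each paired region (x axis, grouped by slide), with 0 drawn at 10 CPM. In the fibroblast segment RTS0074851 was higher in 17 of 17 regions and RTS0068460 in 12, while RTS0070506 and RTS0065353 were lower in 17 of 17 with no overlap between the segment types. The probes were chosen by smallest p in these same segments. For RTS0068460 the 12 include the pair of animal 2, with 6 counts against 0.

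Both lower probes were also lower in cortex pericyte than in the paired ME pericyte segments, with no overlap. In the 15 cortex pericyte segments RTS0070506 was at 38.7 to 606 CPM (median 255), below the 742 CPM of the lowest paired ME pericyte segment. RTS0065353 was at 73.0 to 321 CPM (median 107), also below the lowest paired ME pericyte segment. RTS0074851 was at 0 to 309 CPM (median 184) there. The paired ME pericyte segments of animals 2 and 4 lay above this range, at 491 CPM and at 594 to 1699 CPM, whereas those of animal 3, at 53.0 to 328 CPM, overlapped it. These are descriptions of probes chosen within the ME, and for the lower probes the choice favored high levels in the ME pericyte segments.

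Because the called probes were chosen on all 3 animals, a second choice was made in animal 3 alone and then read in the animals it had not used. Sums per slide of animal 3 were compared with the slide as a block. Of 10439 probes, 102 (0.977%) were chosen as higher and 200 (1.92%) as lower in the fibroblast segments. Slides of 1 animal are not separate animals, so the p-values behind this choice are too small for a statement on mice. Of the probes called over the 3 animals, 38 of 50 higher and 103 of 114 lower ones were among those chosen.

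In animal 4, 69 of the 102 probes chosen as higher were higher (67.6%), with a median log2 change of 0.40. Of the 200 chosen as lower, 176 were lower (88.0%), with a median of -0.86. Over all 10439 probes, 46.7% were higher and 53.3% lower, with a median of 0.00. In animal 2, 62 of 102 were higher (60.8%, median 0.42) and 140 of 200 were lower (70.0%, median -0.48), beside 49.1% and 47.9% of all probes. Both animals thus followed the direction of animal 3 for most chosen probes, with smaller medians than the 1.12 and -1.19 of animal 3, which were set by the choice itself.

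The chosen probes were summed in every segment, and the summed counts of the 102 were divided by those of the 200. In paired fibroblast segments this ratio was 0.948 to 1.60 in animal 3, 1.06 to 1.62 in animal 4 and 0.560 in animal 2. In the pericyte segments of the same regions it was 0.132 to 0.241, 0.287 to 0.422 and 0.182. In animal 3 the separation of the segment types was set by the choice of probes. The choice did not use animals 2 and 4, which gave 1 and 3 pairs. In both of them every fibroblast segment lay above every pericyte segment. In animal 2 the fibroblast segment was the lowest of the 17, and the pericyte set took 2.34% of its counts, against 1.13% to 1.50% in the other paired fibroblast segments.

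Segments outside the pairs were read on the same scale. The 3 ME fibroblast segments with no pericyte partner had ratios of 0.614 in animal 1 and 0.805 and 1.04 in animal 3. Cortex pericyte segments had 0.181 to 0.311, within the range of the ME pericyte segments only when animals are pooled. In animal 3 the cortex segments had 0.244 to 0.266, all above the 0.132 to 0.241 of its ME pericyte segments. The pericyte set took 2.19% to 2.39% of counts in those cortex segments, against 2.96% to 4.29% in the ME pericyte segments. In animal 4 the ratios overlapped, at 0.231 to 0.311 in the cortex and 0.287 to 0.422 in the ME. In the cortex, 1 region of animal 2 gave both a GFP and a Desmin segment, with ratios of 0.399 and 0.194. These segments held 21654 and 28068 counts. Of the probes chosen as higher in the ME, 55 of 102 (53.9%) were also higher in this cortex GFP segment, and 111 of the 200 chosen as lower were lower (55.5%), beside 45.1% and 42.6% of all 10439 probes. The median log2 differences, GFP minus Desmin, were 0.13 and -0.26, beside 0.0 over all probes. This is 1 pair of segments, and probes are not replicates, so the distance from the shares of all probes was not tested. Another 30 of the 102 and 72 of the 200 went the opposite way, and the remaining probes did not differ in this pair. The ME pair of the same animal had 60.8% and 70.0%, beside 49.1% and 47.9% of all probes.

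**Figure D5:**
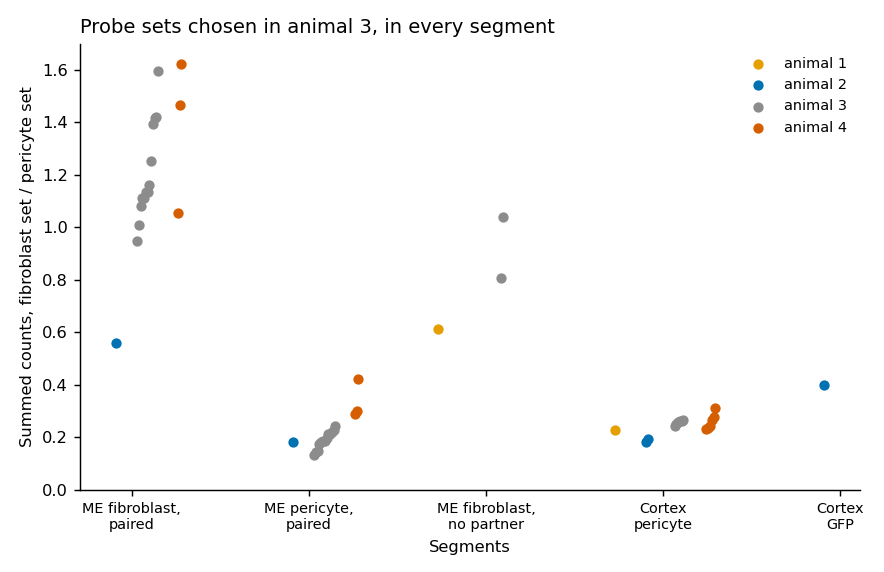
Summed counts of the 102 probes chosen as higher divided by those of the 200 chosen as lower in animal 3 (y axis) in each of the 53 segments (points, colored by animal) by segment type (x axis). Paired ME fibroblast segments lie at 0.560 to 1.62 and paired ME pericyte segments at 0.132 to 0.422, and the values of animal 3 were set by the choice of probes.

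Changes were also compared between slides, as a description over probes, which are not independent replicates. Between the 3 slides of animal 3, the log2 changes of the 3305 probes had Pearson correlations of 0.47 to 0.54. With slide 21 of animal 4 they were 0.38 to 0.42, and with slide 42 of animal 2 they were 0.19 to 0.22. In the 827 probes of highest level the same values were 0.71 to 0.79, 0.64 to 0.69 and 0.40 to 0.45. Slide 42 holds 1 pair, and its pericyte segment had the fewest counts of all paired pericyte segments.

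Finally, the pairing itself was examined by asking whether the 2 segments of a region resembled each other beyond what their slide shared. For each segment, the mean of its type on its slide was subtracted from its log2 CPM. The Spearman correlation across probes between the 2 segments of a region had a median of 0.01 over 16 regions and of 0.05 in the 500 highest probes. Correlations with other regions of a slide are tied to this value by the subtraction, so their sizes are not compared with it. Only their order within a slide was counted. A fibroblast segment was closest to its own partner in 8 of 16 regions, where 4 would be if partners were drawn evenly. With the 500 highest probes it was closest in 6 of 16. These counts were not tested.

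In 165 probes with a mean of at least 20 counts per segment, the segment type held 37.4% of the sum of squares of log2 CPM. Animals held 18.6%, slides within animals 5.17%, regions within slides 18.7%, and the change of the type difference between regions 14.0%. The change of the type difference between animals held 3.49% and between slides of an animal 2.59%. Counting error, summed over all 34 segments and not split between these parts, came to 26.6% of the whole. In animal 3, the variance of the within-region difference was a median of 0.898 times that of a difference between segments not matched by region (165 probes, 13 regions). Matching by region thus narrowed the spread by little.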

How the data were processed

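Segment type, animal, slide, region and nuclei were taken from the labels. The authors processed reads with GeoMx NGS Pipeline 2.3.4 (per the file headers), counted deduplicated reads per probe and deposited raw counts, 1 file per segment. A probe absent from a file was set to 0. An automated unit check could not read 8 files, which were checked as whole numbers when loaded. Totals were 24517 to 140347 counts per paired segment, so single probes carry few counts.

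Counts of the paired segments were added up for each animal and type. Probes passed filterByExpr at a minimum count of 10, and upper-quartile factors (percentile 75) were used. The test was edgeR 4.0.16's robust quasi-likelihood F test in R 4.3.3, blocked by animal (2 residual degrees of freedom per probe), with Benjamini-Hochberg adjustment. A standard error is the fitted change over the square root of F. The 2 sums of an animal are paired by origin, and their deviations from the group means correlated at 0.087, 0.071 and 0.096 in animals 2, 3 and 4. Log2 CPM used a prior count of 2. The sum of squares was split by animal, slide, region and type over probes with a mean of at least 20 counts. Thinning took 1 random draw and was chosen after seeing the data.

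Alternatives were TMM, library totals, DESeq2 1.42.0, other filters, no block, left-out animals and regions, single segments, slide sums, limma 3.58.1 and a mixed model (lme4 1.1.37, lmerTest 3.1.3). The script was tested on simulated data. The regions, probe sets and tests were chosen with earlier results of these data known. Named are, per direction, the 2 called probes with the smallest p whose computed change had the same sign in 3 animals. For RTS0068460 the sign in animal 2 rests on 6 counts against 0. No table used here pairs probes with genes or marks negative controls, so gene lists, sequences and the limit of quantification were not analysed here.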

Additional observations from a re-analysis of the deposited data

Results flagged for a closer look

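The nuclei ratio of region 4 on slide 5 stood apart from the other 4 regions of that slide, with a log2 ratio of -0.26, fibroblast over pericyte, and a gap of 0.825 of the slide's range (Dixon's critical value 0.71). It was the 1 region so found in 28 tests, where chance gives about 1 in 20.

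Total counts were higher in the fibroblast segment in every region of slide 4 (mean log2 ratio 0.54) and lower in every region of slide 21 (-0.88). The number of probes with at least 10 counts followed the same split, with mean log2 ratios of 1.05 and -1.67. After both segments of a region were thinned to the same total these means were 0.075 and -0.16. The differences between the slides were not tested, and the slides come from different animals.

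Segments outside the comparison also showed a ratio of the fibroblast to the pericyte probe set above that of pericyte segments, whose highest value was 0.422 over 32 segments. The ratio was 0.614 in the unpaired ME fibroblast segment of animal 1 and 1.04 and 0.805 in those of animal 3. The cortex GFP segment, at 0.399, was above the Desmin segment of its own region (0.194) but not above the highest pericyte segment.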

How the results depend on the processing

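Against 164 called probes (50 higher and 114 lower in the fibroblast segments), the number was 35 with DESeq2 (7 and 28), 83 with no filter on low counts (14 and 69), 39 with a minimum count of 30 (15 and 24), 57 with the mixed model (17 and 40), 100 with only slide 6 for animal 3 (29 and 71) and 0 with limma (0 and 0). Without the animal as a replicate block it was 133, with 29 higher and 104 lower, and RTS0074851 and RTS0068460 were no longer called. It changed no call of RTS0070506 and RTS0065353. Leaving out 1 animal gave 7 to 176 calls (2 to 55 higher and 5 to 124 lower), with the fewest without animal 3. The minimum count of 30 left 349 probes, and the cause of the other changes was not tested. The 4 named probes kept their direction in all 18 alternatives, and of these 72 values 63 stayed past the threshold. Both counts were favored by the choice, since the probes were picked for small p and a shared sign in these same segments.

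Without replicate 2, 3 or 4, the mean log2 ratio over animals ran from 0.95 to 1.31 for nuclei, from -0.51 to 0.49 for total counts and from -1.50 to -0.82 for counts per nucleus. With no limit on size in the choice made in animal 3, 78.6% of the probes chosen as higher were higher in animal 4. Other alternatives of the probe choice left each share within an exact binomial interval over probes, which treats probes as independent although they are not. For the measures per region, no alternative moved a mean by more than the SD of the 3 animals. The regions where the own partner was closest went from 8 of 16 to 6 of 16 with the 500 highest probes. Depth limits what single probes can show, and with 3 animals, 1 of them with 1 pair, an exact test cannot reach 0.05.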
